A study of Ovis aries with 10 samples.

Results

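The genes described here encode the voltage-gated sodium and calcium channels, the HCN pacemaker channels and the TRPC cation channels, with the subunits that accompany the first 2 of these. They were all rows of the deposited count table whose symbol belongs to one of 8 families, by name alone and not by any measured value: 49 of 33775 genes. The families held 10 sodium channel alpha subunits, 4 sodium channel beta subunits, 9 calcium channel alpha1 subunits, 4 alpha2delta subunits, 4 calcium channel beta subunits, 8 gamma subunits, 4 HCN channels and 6 TRPC channels. All 49 identifiers occur in the RefSeq assembly ARS-UI_Ramb_v3.0, where 47 carry the same symbol; the genes listed as SCN3A and SCN10A have only locus names there. RNA came from the mediobasal hypothalamus of adult Ile-de-France ewes, either in the follicular phase, when oestradiol dominates, or in the luteal phase, when the corpus luteum secretes progesterone. For each of the 10 libraries equimolar RNA of 2 ewes was combined at random within a phase, with 5 libraries per phase, from 20 ewes in all. No other treatment or genotype is given in the labels. Because each library is whole tissue, fewer cells of a type and less RNA per cell cannot be told apart.

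Neurons fire when sodium channels open, and calcium channels then admit the calcium that triggers release of transmitter and peptide. The alpha subunit of either channel forms the pore, while beta, alpha2delta and gamma subunits set its place in the membrane and its gating. T-type calcium channels and HCN channels open near the resting potential and shape rebound bursts and rhythm, and TRPC channels carry slow depolarising currents downstream of receptors coupled to phospholipase C. In arcuate neurons TRPC channels are known as carriers of the excitatory actions of kisspeptin and leptin, and T-type and HCN currents as part of burst firing.

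The libraries held 20644992 to 43193449 reads (mean 28178612 ± 9130244 follicular and 37595895 ± 5397188 luteal, SD, n = 5 each; exact permutation test of the means, two-sided, p = 0.111). The 49 genes together took 0.137% to 0.171% of the reads of a library. Levels are given as CPM, counts scaled by the library total after TMM adjustment, which corrects for differences in composition between libraries. Of 10 listed arcuate neuron genes 9 were matched by symbol and passed the filter on low counts, with a summed level of 1397.5 to 2185.4 CPM across the follicular and 1323.7 to 1954.5 CPM across the luteal libraries. Pituitary and pars tuberalis hormone genes, which mark tissue next to the median eminence, summed to 2685.2 to 4286.7 CPM across the follicular and 2031.6 to 4258.4 CPM across the luteal libraries, so RNA of hormone-secreting cells was present in all of them. The libraries differed along a first principal component, computed here without the channel genes, that held 51.0% of the variance. Follicular 1, 3 and 4 lay at its low end (-53.2, -61.5 and -35.7), with ribosomal protein genes taking 9.19%, 9.19% and 8.09% of the reads. Follicular 5, luteal 3 and luteal 5 lay at its high end (48.1, 47.6 and 58.2), with 4.71%, 5.22% and 4.87%.

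No channel gene passed the comparison of luteal with follicular libraries. Of the 49 genes 46 passed the filter on low counts and were tested, and 0 had an adjusted p under 0.05 by edgeR's quasi-likelihood test over the 18276 genes tested, where 0% of all genes did. DESeq2 called 0 of the 46 and 0.159% of all genes, and limma-voom called 0 of the 46 and 0% of all genes. At an unadjusted edgeR p under 0.05 there were 2 channel genes, CACNB2 averaging higher and CACNB1 averaging lower in luteal libraries. That is 4.35% of the 46, against 11.4% of all genes tested (4.27% higher and 7.12% lower). The order of these shares was not tested and turned with some settings. It was 10.9% of channel genes against 7.96% of all genes with the first principal component as a term in the model. Without follicular 1 it was 6.52% against 5.68%. With limma-voom the order held but the shares were close, at 8.7% against 8.85%. For 0 of the 46 did the 5 luteal values lie all above or all below the 5 follicular values, a separation seen in 1.12% of all genes tested (0.607% higher and 0.514% lower). The log2 fold change of luteal over follicular, used throughout, was above 0 for 28 and below 0 for 18 of the channel genes, with a median of 0.03 and a range of -0.46 to 0.72. Over all genes tested the median was 0.01 and 51.5% lay above 0. The median size of the change without its sign was 0.14 for channel genes and 0.21 for all genes tested.

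**Figure D1:**
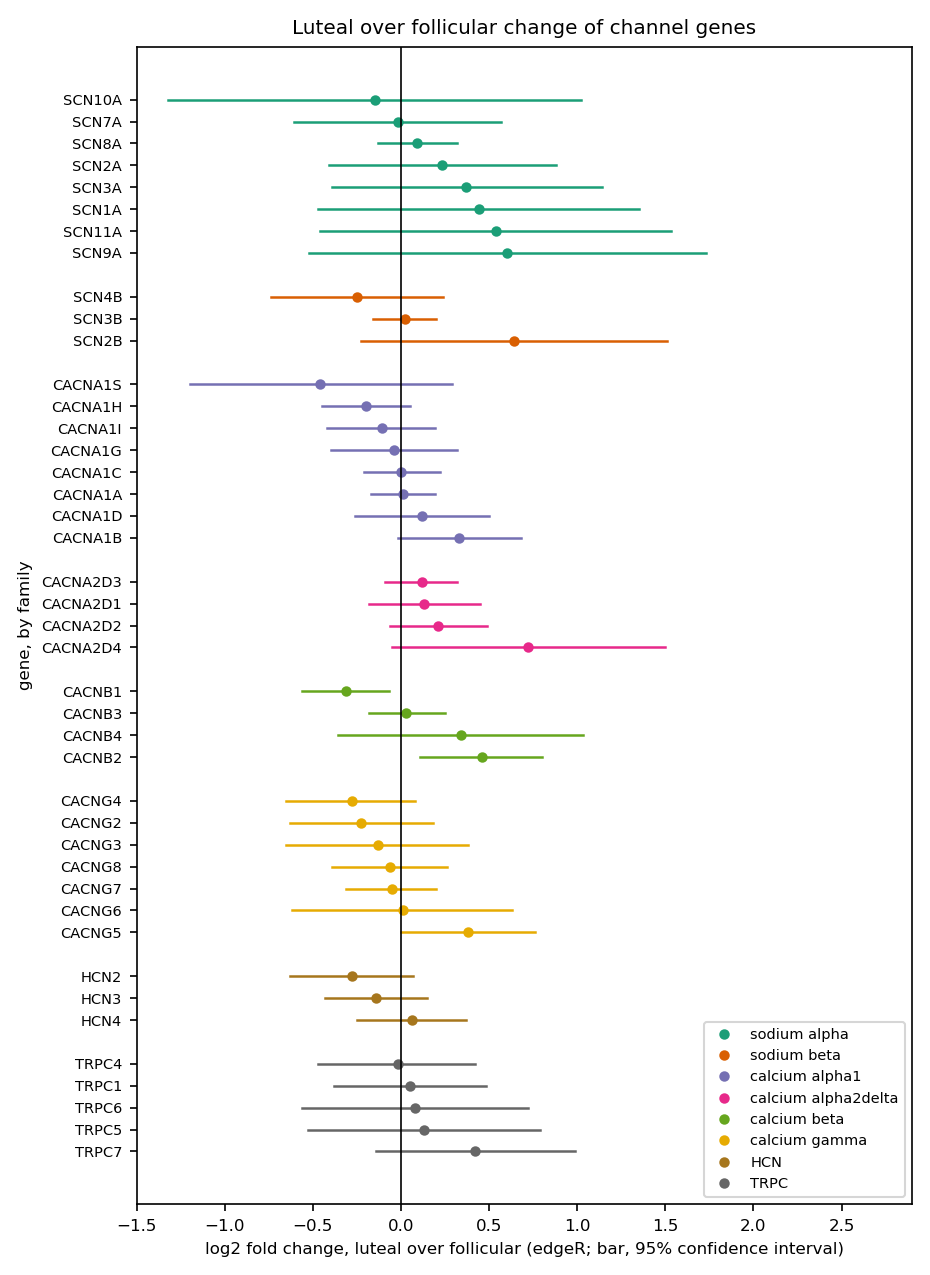
Log2 fold change of luteal over follicular for 42 of the 46 tested channel genes (x axis; y axis, gene grouped by family), with points for the edgeR estimate and bars for its 95% confidence interval. The intervals of CACNB2 and CACNB1 lie on one side of 0, on opposite sides from each other, and the widest bars belong to genes with few reads such as SCN10A and to genes that varied among libraries such as SCN9A.

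The 3 genes below the filter were SCN4A, the sodium channel of skeletal muscle, CACNA1F, an L-type channel of the retina, and CACNG1, a gamma subunit of skeletal muscle. SCN4A had 2 to 12 reads in each library. CACNA1F had 0 to 11 reads, with 0 in follicular 3, where 0 reads allow a level of up to 0.159 CPM. CACNG1 had 0 to 5 reads, with 0 in follicular 1 and luteal 3, where 0 reads allow up to 0.154 and 0.0967 CPM. These limits cover counting error only.

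The calcium channel beta subunits are cytoplasmic proteins that bind the linker between the first and second domain of alpha1, bring the channel to the membrane and set its voltage dependence. CACNB2 and CACNB1 had the smallest unadjusted p of all channel genes, in opposite directions. CACNB2 stood at 31.1, 38.9, 29.9, 33.5 and 49.6 CPM in follicular libraries 1 to 5 and 37.8, 50.6, 51.1, 57.3 and 54.5 CPM in luteal libraries 1 to 5. Of the 5 luteal libraries 4 lay above the highest follicular one, and luteal 1 lay inside the follicular range. The means were 36.6 ± 8.03 CPM for the follicular and 50.3 ± 7.48 CPM for the luteal phase (SD, n = 5 per phase, as for all means that follow), a log2 fold change of 0.46 (SE 0.16, 95% interval 0.11 to 0.80, edgeR adjusted p = 0.426). In the named assembly CACNB2 overlaps NSUN6, an RNA methyltransferase gene that had means of 41.9 CPM (follicular) and 59.3 CPM (luteal) (log2 fold change 0.50, SE 0.23). The overlap is of gene spans, and exons were not compared. As the strand setting of the counting is not given either, whether the 2 genes shared reads could not be told.

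CACNB1 stood at 90.7, 82.9, 99.3, 91.8 and 73.1 CPM in follicular libraries 1 to 5 and 82.7, 70.5, 62.8, 74.2 and 62.1 CPM in luteal libraries 1 to 5. Luteal 2, 3 and 5 lay below the lowest follicular library, follicular 5, and luteal 1 and 4 lay inside the follicular range. The means were 87.6 ± 9.99 CPM for the follicular and 70.5 ± 8.54 CPM for the luteal phase, a log2 fold change of -0.31 (SE 0.11, 95% interval -0.56 to -0.07, edgeR adjusted p = 0.426). The ratio of CACNB2 to CACNB1 reads in a library thus ran from 0.301 to 0.678 in follicular and from 0.457 to 0.878 in luteal libraries, with luteal 1 the lowest luteal and follicular 5 the highest follicular library. This ratio was chosen after its values were seen and has no test. CACNB4, whose loss causes ataxia and seizures in mice, stood at 2.36, 2.9, 2.44, 2.17 and 5.62 CPM in follicular libraries 1 to 5 and 4.22, 3.23, 5.19, 2.13 and 5.06 CPM in luteal libraries 1 to 5. Its highest library was follicular 5 and its 4 lowest were luteal 4 and follicular 4, 1 and 3, so that the phases overlapped over most of their range (log2 fold change 0.34, SE 0.32, 95% interval -0.36 to 1.03, edgeR adjusted p = 0.575). CACNB3 stood at 109.9, 142.9, 124.5, 139.0 and 130.3 CPM in follicular libraries 1 to 5 and 137.4, 133.7, 117.8, 145.2 and 128.3 CPM in luteal libraries 1 to 5, with a log2 fold change of 0.03 (SE 0.10, 95% interval -0.18 to 0.25, edgeR adjusted p = 0.86); the values of the phases overlapped almost fully.

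**Figure D2:**
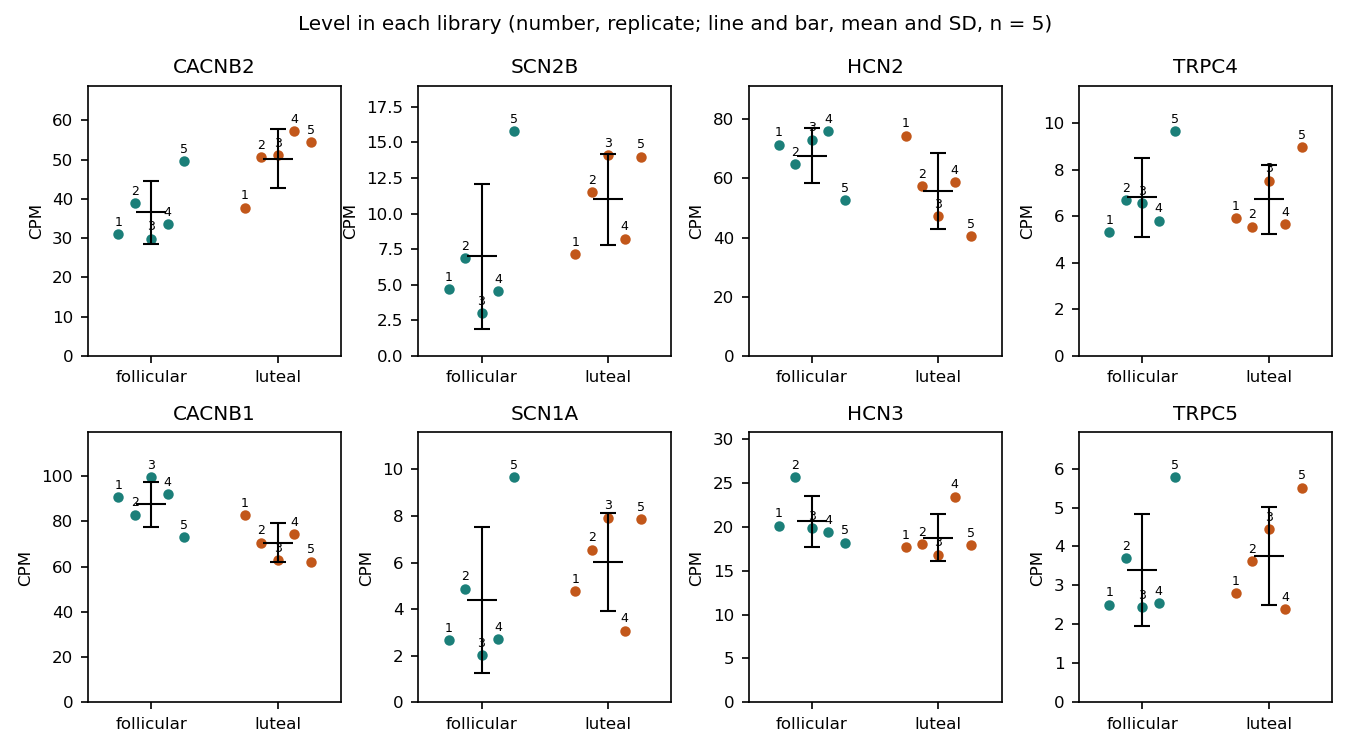
Level of 8 channel genes in each library (y axis, CPM, from 0; x axis, phase), with a point per library numbered by replicate and a line and bar for the mean and SD of 5 libraries. Follicular 5 lies among or beyond the luteal libraries in CACNB2, CACNB1, SCN2B, SCN1A and HCN2, and the 2 phases overlap in all 8 genes.

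Of the sodium channel alpha subunits, which form the pore behind the rising phase of the action potential, 9 of 10 were tested, 7 averaged higher and 2 lower in luteal libraries, and none passed (median log2 fold change 0.23; edgeR adjusted p from 0.539 to 0.970). SCN1A, a channel of fast-spiking inhibitory neurons, stood at 2.66, 4.88, 2.02, 2.7 and 9.65 CPM in follicular libraries 1 to 5 and 4.76, 6.55, 7.93, 3.08 and 7.86 CPM in luteal libraries 1 to 5. The highest library was follicular 5, the next 3 were luteal, and the lowest was follicular 3. Its log2 fold change was 0.44 (SE 0.42, 95% interval -0.47 to 1.35, edgeR adjusted p = 0.58). SCN3A, a channel best known from the developing brain, stood at 5.63, 8.47, 4.51, 4.23 and 14.8 CPM in follicular libraries 1 to 5 and 6.88, 10.5, 12.2, 6.45 and 13.1 CPM in luteal libraries 1 to 5, again with follicular 5 highest and follicular 4 and 3 lowest. The log2 fold change of SCN3A was 0.37 (SE 0.35, 95% interval -0.39 to 1.14, edgeR adjusted p = 0.575). SCN2A, a channel of axons and initial segments, stood at 9.01, 10.9, 9.5, 6.26 and 19 CPM in follicular libraries 1 to 5 and 13.3, 12.4, 15.9, 6.92 and 16 CPM in luteal libraries 1 to 5. Follicular 5 was the highest and follicular 4 the lowest library, with luteal 4 just above it, and the log2 fold change was 0.23 (SE 0.30, 95% interval -0.41 to 0.88, edgeR adjusted p = 0.674).

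SCN9A, which sensory neurons and hypothalamic neurosecretory cells use to amplify small depolarisations, stood at 1.23, 0.88, 0.849, 0.674 and 2.72 CPM in follicular libraries 1 to 5 and 0.854, 1.5, 3.16, 0.758 and 3.67 CPM in luteal libraries 1 to 5. Luteal 5 and 3 and follicular 5 were high, at 2.72 CPM or more, and the other 7 libraries lay at or below 1.5 CPM. The log2 fold change was 0.60 (SE 0.52, 95% interval -0.52 to 1.73, edgeR adjusted p = 0.542), from 16 to 156 reads in a library. The genes SCN7A, SCN9A, SCN1A, SCN2A and SCN3A are neighbours in the assembly, each within 5 coding genes of another of them, and all but SCN7A had follicular 5 among their 3 highest libraries. SCN8A, the main channel of the axon initial segment in adult neurons, stood at 55, 51.2, 56.5, 57 and 65 CPM in follicular libraries 1 to 5 and 57.8, 64.9, 64.2, 50.4 and 65.9 CPM in luteal libraries 1 to 5. It spanned a narrow range, with luteal 4 lowest and luteal 5 highest, so that the luteal libraries enclosed the follicular ones (log2 fold change 0.09, SE 0.10, 95% interval -0.13 to 0.32, edgeR adjusted p = 0.636).

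SCN11A, a channel of pain-sensing neurons, had 3 to 31 reads in a library and stood at 0.256, 0.477, 0.159, 0.15 and 0.283 CPM in follicular libraries 1 to 5 and 0.366, 0.802, 0.354, 0.171 and 0.283 CPM in luteal libraries 1 to 5. Luteal 2 was the only library above the highest follicular one, and the log2 fold change was 0.54 (SE 0.46, 95% interval -0.46 to 1.53, edgeR adjusted p = 0.539). SCN10A, its neighbour and likewise a channel of sensory neurons, had 3 to 29 reads and spanned 0.154 to 1.54 CPM, lowest in follicular 1 and highest in follicular 3 (log2 fold change -0.15, SE 0.54). SCN7A, an atypical channel of glia that sense sodium in organs around the ventricles, spanned 1.01 to 2.68 CPM (log2 fold change -0.02, SE 0.27).

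The sodium channel beta subunits are single-pass membrane proteins with an immunoglobulin fold that modulate gating and link the channel to adhesion. SCN2B averaged higher in luteal libraries, SCN4B averaged lower, and SCN3B differed by 0.02 on the log2 scale; none of the 4 genes of the family passed (median log2 fold change -0.11; edgeR adjusted p from 0.430 to 0.896). SCN2B stood at 4.71, 6.86, 3.02, 4.53 and 15.8 CPM in follicular libraries 1 to 5 and 7.15, 11.5, 14.1, 8.24 and 14 CPM in luteal libraries 1 to 5. All 5 luteal libraries lay above the follicular mean, yet follicular 5 was the highest library of all. Its log2 fold change was 0.64 (SE 0.40, 95% interval -0.23 to 1.51, edgeR adjusted p = 0.45). SCN4B, which is tied to resurgent sodium current, stood at 6.5, 8.77, 10.6, 10.4 and 8.39 CPM in follicular libraries 1 to 5 and 10.1, 7.3, 9.22, 6.6 and 4.38 CPM in luteal libraries 1 to 5. Only luteal 5 fell outside the follicular range, and the log2 fold change was -0.25 (SE 0.23, 95% interval -0.74 to 0.24, edgeR adjusted p = 0.562). SCN2B and SCN4B are neighbours in the assembly, and luteal 5 was the lowest library for SCN4B and one of the 3 highest for SCN2B. SCN3B stood at 121.5, 119.3, 114.9, 104.0 and 119.5 CPM in follicular libraries 1 to 5 and 116.6, 122.2, 120.3, 105.1 and 124.2 CPM in luteal libraries 1 to 5, with a log2 fold change of 0.02 (SE 0.08, 95% interval -0.16 to 0.20, edgeR adjusted p = 0.896).

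**Figure D3:**
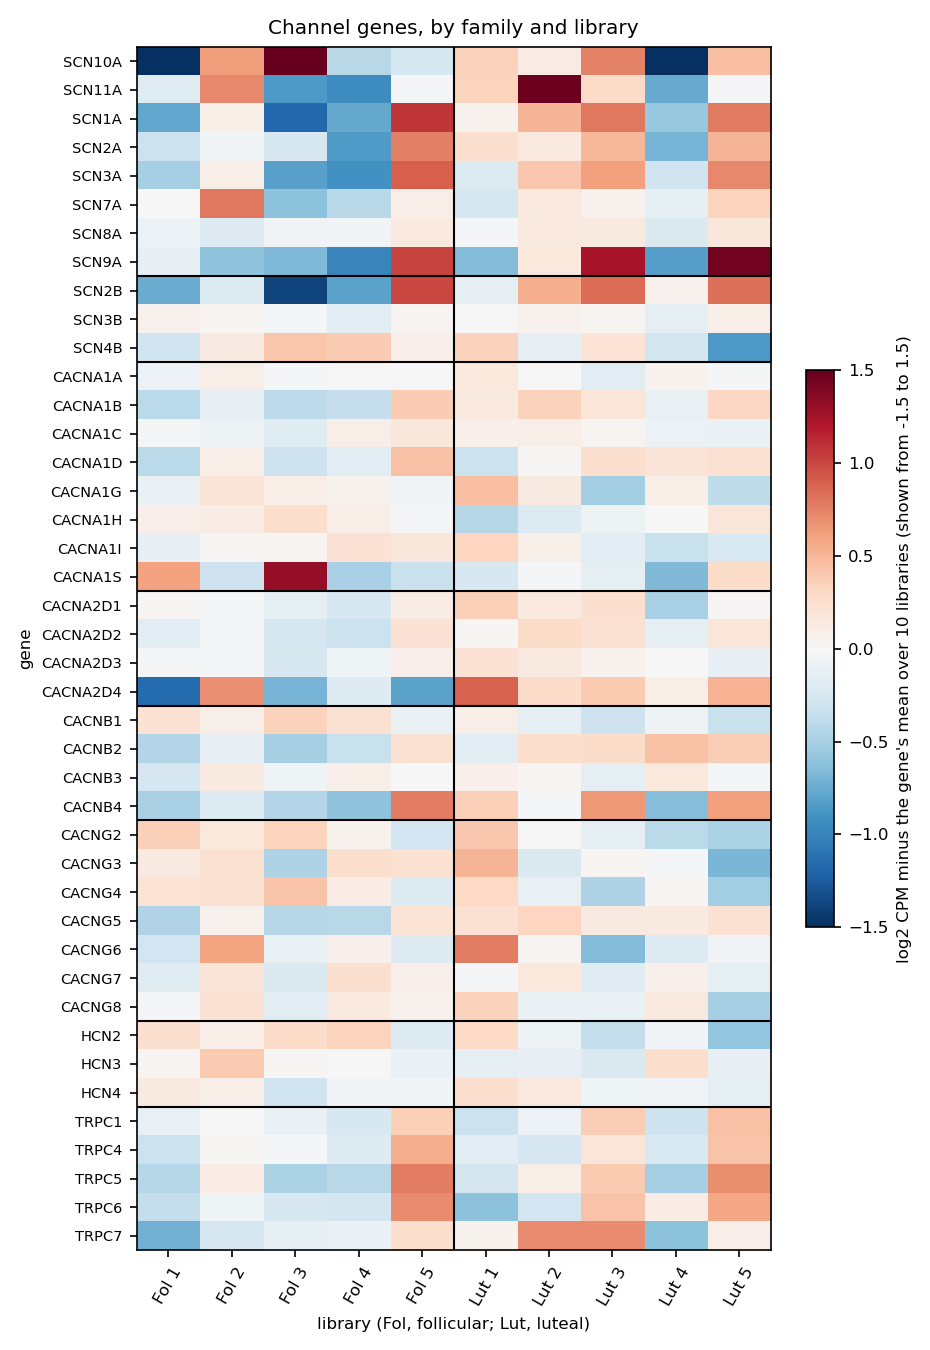
Log2 CPM of 42 of the 46 tested channel genes minus each gene's mean over 10 libraries (colour, shown from -1.5 to 1.5; rows, genes in families separated by lines; columns, libraries). SCN1A, SCN2A, SCN3A, SCN2B, CACNB4 and TRPC5 are high in follicular 5, luteal 3 and luteal 5 alike and low in follicular 1, 3 and 4, while CACNB1, CACNG4 and HCN2 run the other way.

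Of the calcium channel alpha1 subunits 8 of 9 were tested, 4 above and 4 below 0, with a median log2 fold change of -0.02 and edgeR adjusted p from 0.426 to 0.988. The 3 T-type genes, whose low-threshold currents give rebound bursts, did not differ beyond the spread between libraries. CACNA1H stood at 214.8, 219.7, 243.9, 218.0 and 198.5 CPM in follicular libraries 1 to 5 and 151.0, 175.9, 192.0, 202.5 and 230.5 CPM in luteal libraries 1 to 5. Luteal 1, 2 and 3 lay below the lowest follicular library and luteal 4 and 5 inside the follicular range, with a log2 fold change of -0.20 (SE 0.12, 95% interval -0.45 to 0.05, edgeR adjusted p = 0.441). CACNA1G stood at 80.7, 98.9, 93.1, 90 and 83.9 CPM in follicular libraries 1 to 5 and 118.7, 95.5, 60.7, 92.9 and 66.4 CPM in luteal libraries 1 to 5. Luteal 1 was the highest library and luteal 3 and 5 the lowest, on both sides of the follicular range, and the log2 fold change was -0.04 (SE 0.17, 95% interval -0.40 to 0.32, edgeR adjusted p = 0.908). CACNA1I stood at 19.1, 21, 21.3, 24.2 and 23.3 CPM in follicular libraries 1 to 5 and 25.9, 22.1, 18.5, 16.4 and 17.7 CPM in luteal libraries 1 to 5. Luteal 3, 4 and 5 lay below and luteal 1 above the follicular range (log2 fold change -0.11, SE 0.14, 95% interval -0.42 to 0.19, edgeR adjusted p = 0.668).

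Among the high-threshold channels CACNA1B, the N-type channel of presynaptic terminals, stood at 34.8, 42.2, 35, 36.1 and 59.9 CPM in follicular libraries 1 to 5 and 51, 58.5, 52.2, 42.4 and 57.1 CPM in luteal libraries 1 to 5. All 5 luteal libraries lay above the follicular mean, and follicular 5 was the highest library. The log2 fold change was 0.33 (SE 0.16, 95% interval -0.02 to 0.68, edgeR adjusted p = 0.426). CACNA1A, the P/Q-type channel that shares this presynaptic role, spanned only 67.2 to 83.6 CPM, with a log2 fold change of 0.01 (SE 0.08, 95% interval -0.17 to 0.19, edgeR adjusted p = 0.96). The L-type genes CACNA1C and CACNA1D spanned 28.2 to 36 CPM and 18.9 to 34 CPM, with log2 fold changes of 0.00 (SE 0.10) and 0.12 (SE 0.17). In the assembly CACNA1C overlaps the coding gene DCP1B (38.7 and 38.5 CPM in follicular and luteal libraries). CACNA1D overlaps CHDH (9.21 and 8.73 CPM) and DCP1A (17.7 and 22.1 CPM). These overlaps too are of gene spans, so whether reads were shared is uncertain.

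CACNA1S, the L-type channel that triggers contraction in skeletal muscle, was present in this brain tissue at 10.3, 5.46, 16.9, 4.83 and 5.36 CPM in follicular libraries 1 to 5 and 5.73, 6.68, 6.15, 4.28 and 8.22 CPM in luteal libraries 1 to 5. Follicular 3 and follicular 1 were the highest libraries, and the other 8 lay between 4.28 and 8.22 CPM. The log2 fold change was -0.46 (SE 0.34, 95% interval -1.20 to 0.29, edgeR adjusted p = 0.503). Without follicular 3 it was -0.06, and without follicular 1 and 3 together it was 0.26. Of 5 skeletal muscle markers MYH2 and CKM stayed below 1 CPM in every library. The summed level of the list was 20.0 to 45.2 CPM across the follicular and 27.8 to 36.0 CPM across the luteal libraries, most of it from ACTA1. TNNT3, a troponin of fast muscle, was highest in the same 2 libraries as CACNA1S, at 10.2 CPM in follicular 3 and 9.53 CPM in follicular 1 against 2.2 to 7.15 CPM elsewhere. ACTA1 was also highest there (33.9 and 33.2 CPM), but follicular 2 and luteal 1 lay close, at 31.7 and 30.3 CPM. The other markers differed: MYH1 was highest in follicular 4 (1.76 CPM) and follicular 5 (1.22 CPM). MYH2 was highest in follicular 1 (0.41 CPM) and CKM in luteal 3 (0.226 CPM). The part of muscle RNA in the CACNA1S values was not tested.

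The alpha2delta subunits are extracellular proteins that raise the number of calcium channels at the surface and bind gabapentin in 2 of the 4 cases. All 4 averaged higher in luteal libraries, and none passed (median log2 fold change 0.17; edgeR adjusted p from 0.426 to 0.624). CACNA2D2 stood at 50.4, 56.3, 47.8, 45.3 and 65.8 CPM in follicular libraries 1 to 5 and 57.5, 68.7, 66.7, 51.2 and 64.4 CPM in luteal libraries 1 to 5. Luteal 2 and 3 lay above the highest follicular library, follicular 5, and the log2 fold change was 0.21 (SE 0.12, 95% interval -0.06 to 0.49, edgeR adjusted p = 0.441). CACNA2D3 stood at 44.4, 44.3, 38.2, 43.1 and 47.5 CPM in follicular libraries 1 to 5 and 52.5, 49.7, 46.8, 45.2 and 41.6 CPM in luteal libraries 1 to 5. Luteal 1 and 2 lay above the follicular range, and the log2 fold change was 0.12 (SE 0.10, 95% interval -0.09 to 0.32, edgeR adjusted p = 0.532). CACNA2D1, a receptor for thrombospondin as well as a channel subunit, spanned 32.4 to 57.9 CPM, with luteal 4 lowest and luteal 1 highest (log2 fold change 0.13, SE 0.15). CACNA2D4, known from the retina, had 3 to 26 reads in a library and stood at 0.154, 0.55, 0.212, 0.3 and 0.196 CPM in follicular libraries 1 to 5 and 0.634, 0.414, 0.451, 0.367 and 0.494 CPM in luteal libraries 1 to 5. Follicular 2 lay among the luteal values and luteal 1 was the highest library (log2 fold change 0.72, SE 0.35, 95% interval -0.05 to 1.5, edgeR adjusted p = 0.426). It overlaps LRTM2 in the assembly, which ran in the other direction (72.2 CPM across the follicular and 49.3 CPM across the luteal libraries; log2 fold change -0.55, SE 0.15).

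The gamma family joins subunits of the muscle calcium channel with the TARPs, which escort AMPA-type glutamate receptors to the synapse. Of 8 genes 7 were tested, 2 above and 5 below 0, with a median log2 fold change of -0.06 and edgeR adjusted p from 0.426 to 0.989. CACNG5 stood at 3.07, 4.4, 3.13, 3.15 and 4.86 CPM in follicular libraries 1 to 5 and 4.93, 5.28, 4.61, 4.62 and 4.92 CPM in luteal libraries 1 to 5. Luteal 1, 2 and 5 lay above the follicular range and luteal 3 and 4 at its upper end, with a log2 fold change of 0.38 (SE 0.18, 95% interval 0.00 to 0.76, edgeR adjusted p = 0.426). Its neighbour in the assembly, CACNG4, a TARP also made by glial precursors, stood at 75.6, 76.9, 88.2, 71.3 and 57.1 CPM in follicular libraries 1 to 5 and 80.7, 61.1, 47.9, 67.3 and 45.8 CPM in luteal libraries 1 to 5. Luteal 3 and 5 lay below the lowest follicular library and the other 3 inside the follicular range, with a log2 fold change of -0.28 (SE 0.17, 95% interval -0.65 to 0.08, edgeR adjusted p = 0.442). CACNG2, which encodes stargazin, stood at 20.6, 18, 20.2, 16.7 and 13.2 CPM in follicular libraries 1 to 5 and 21.2, 16.1, 14.6, 12.1 and 11.6 CPM in luteal libraries 1 to 5. The phases overlapped, with luteal 1 the highest library and luteal 5 the lowest, and the log2 fold change was -0.23 (SE 0.19, 95% interval -0.63 to 0.18, edgeR adjusted p = 0.527). CACNG7 stood at 89.3, 116.6, 87.3, 120.3 and 107.3 CPM in follicular libraries 1 to 5 and 100.2, 113.1, 89.6, 107.3 and 92.5 CPM in luteal libraries 1 to 5, all luteal values inside the follicular range (log2 fold change -0.05, SE 0.12, 95% interval -0.31 to 0.20, edgeR adjusted p = 0.823). CACNG8, a TARP of the forebrain, and CACNG6 are its neighbours in the assembly and spanned 24.9 to 44.4 CPM and 0.838 to 2.24 CPM, with log2 fold changes of -0.06 (SE 0.15) and 0.01 (SE 0.29). CACNG3 spanned 1.77 to 4.05 CPM (log2 fold change -0.13, SE 0.24).

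The HCN channels open on hyperpolarisation, are tuned by cyclic nucleotides and carry the pacemaker current. None of the 4 passed (median log2 fold change -0.04; edgeR adjusted p from 0.441 to 0.839). HCN2, the slower and strongly cAMP-sensitive channel, stood at 71.4, 64.9, 73.1, 76 and 52.7 CPM in follicular libraries 1 to 5 and 74.4, 57.3, 47.3, 58.7 and 40.5 CPM in luteal libraries 1 to 5. Luteal 3 and 5 lay below the follicular range, and luteal 1 lay near its top. For HCN2 the log2 fold change was -0.28 (SE 0.16, 95% interval -0.63 to 0.07, edgeR adjusted p = 0.441). HCN3 stood at 20.1, 25.6, 19.8, 19.4 and 18.2 CPM in follicular libraries 1 to 5 and 17.7, 18, 16.8, 23.4 and 17.9 CPM in luteal libraries 1 to 5. Luteal 1, 2, 3 and 5 lay below the lowest follicular library, follicular 5, and luteal 4 was the second highest of all 10, leaving a log2 fold change of -0.14 (SE 0.13, 95% interval -0.43 to 0.15, edgeR adjusted p = 0.59). HCN4, the channel of the sinoatrial node, stood at 7.94, 7.7, 5.89, 7 and 7.04 CPM in follicular libraries 1 to 5 and 8.61, 8.02, 6.93, 6.94 and 6.55 CPM in luteal libraries 1 to 5, with the lowest library follicular 3 and the highest luteal 1 (log2 fold change 0.06, SE 0.14, 95% interval -0.25 to 0.37, edgeR adjusted p = 0.839). HCN2 made up 60.2% to 70.9% of the scaled HCN reads in follicular and 55.5% to 69.8% in luteal libraries. These shares are not corrected for transcript length and describe libraries, not the relative number of channels.

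The TRPC channels are cation channels opened downstream of phospholipase C. All 6 were tested, 4 above and 2 below 0, and none passed (median log2 fold change 0.07; edgeR adjusted p from 0.432 to 0.959). TRPC5, a channel through which kisspeptin and leptin depolarise arcuate neurons, stood at 2.51, 3.7, 2.44, 2.55 and 5.77 CPM in follicular libraries 1 to 5 and 2.81, 3.62, 4.45, 2.4 and 5.51 CPM in luteal libraries 1 to 5. Follicular 5 and luteal 5 were the highest libraries and luteal 4 the lowest, and the log2 fold change was 0.13 (SE 0.30, 95% interval -0.53 to 0.79, edgeR adjusted p = 0.83). TRPC4, its closest relative, stood at 5.33, 6.71, 6.58, 5.81 and 9.67 CPM in follicular libraries 1 to 5 and 5.93, 5.56, 7.54, 5.67 and 8.97 CPM in luteal libraries 1 to 5. The highest libraries were again follicular 5 and luteal 5, and all luteal values lay inside the follicular range (log2 fold change -0.02, SE 0.20, 95% interval -0.47 to 0.42, edgeR adjusted p = 0.959). TRPC1, which joins TRPC4 and TRPC5 in mixed channels, spanned 6.29 to 10.7 CPM (log2 fold change 0.05, SE 0.20).

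TRPC6 and TRPC7 belong to the channels opened by diacylglycerol. TRPC7 stood at 5.74, 7.96, 8.6, 8.84 and 11.4 CPM in follicular libraries 1 to 5 and 9.86, 15.5, 15.5, 6.21 and 10.1 CPM in luteal libraries 1 to 5. Luteal 2 and 3 lay above the highest follicular library, while luteal 4 lay near the lowest (log2 fold change 0.42, SE 0.26, 95% interval -0.14 to 0.99, edgeR adjusted p = 0.448). TRPC6 spanned 1.15 to 2.88 CPM, with follicular 5, luteal 5 and luteal 3 highest (log2 fold change 0.08, SE 0.29).

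Summed over the genes of a family, the phases overlapped in each of the 8 families. The sodium alpha genes summed to 85.0 to 130.1 CPM across the follicular and 82.0 to 122.8 CPM across the luteal libraries, and the sodium beta genes to 178.7 to 190.0 and 174.8 to 186.0 CPM. The calcium alpha1 sum was 480.7 to 532.1 CPM across the follicular and 459.3 to 512.4 CPM across the luteal libraries, the alpha2delta sum 126.7 to 162.4 and 129.1 to 168.9 CPM, and the calcium beta sum 234.0 to 267.5 and 236.9 to 278.8 CPM. For the gamma genes the ranges were 223.2 to 262.1 and 182.7 to 257.8 CPM, for the HCN genes 87.5 to 109.1 and 73.0 to 106.6 CPM, and for the TRPC genes 23.8 to 42.8 and 24.2 to 42.3 CPM. Lengths of the transcripts were not used here, so levels of different genes are not ranked.

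Many channel genes varied along the first principal component, in both directions. Over the 10 libraries the Pearson correlation of log2 CPM with it was above 0.8 for 12 and below -0.8 for 3 of the 46 genes, together 32.6%, against 40.6% of all genes tested. This is a description without a test, since the component was computed from the same libraries, which also differ in depth and composition. It was 0.97 for SCN2B (Spearman 0.92), 0.95 for SCN1A (0.95), 0.95 for SCN3A (0.94) and 0.91 for TRPC5 (0.85). At the other end it was -0.94 for CACNB1 (-0.92), -0.91 for HCN2 (-0.88) and -0.90 for CACNG4 (-0.85). Without the 2 libraries farthest from the median of the component, follicular 3 and luteal 5, these values ran from 0.88 to 0.97 and from -0.90 to -0.82. For CACNB3 the correlation was 0.08. Summed markers of some cell types also varied along the component. The correlation was 0.89 for oligodendrocyte precursors (39.7 to 71.7 CPM follicular, 42.2 to 61.4 CPM luteal). Of their 4 markers 3 averaged higher in luteal libraries, while CSPG4 averaged lower. PDGFRA was the largest part of the precursor sum in every library. For astrocytes the correlation was 0.75 (517.6 to 775.1 and 455.9 to 908.7 CPM, with 4 of 5 markers averaging higher in luteal libraries). For the arcuate neuron list it was -0.81, but its markers did not move together: 5 averaged lower and 4 higher in luteal libraries. POMC, from 404.6 CPM (luteal 5) to 1370.9 CPM (follicular 4), was the largest part of that sum in every library. TBX3 instead rose along the component, from 122.5 CPM (follicular 3) to 353.8 CPM (luteal 5). ISL1 also rose, from 28 CPM (follicular 1) to 73.5 CPM (luteal 5). All 3 matched oligodendrocyte markers averaged lower in luteal libraries, at 241.0 to 406.5 CPM follicular and 184.6 to 364.5 CPM luteal in sum. The correlation of that sum was only -0.28. It was -0.78 for skeletal muscle, -0.67 for microglia, -0.64 for endothelium, -0.40 for pituitary and pars tuberalis and -0.34 for mural and smooth muscle. Endothelial markers did not move together, and 5 of 6 averaged higher in luteal libraries. From follicular 3 to luteal 5, CLDN5 fell from 74.9 to 32.3 CPM and VWF also fell. TEK rose from 7.27 to 24 CPM, and PECAM1, CDH5 and FLT1 also rose. Of the microglia markers 4 averaged lower and 2 higher in luteal libraries. Between the same libraries AIF1 fell from 53.3 to 23.8 CPM and P2RY12 rose from 7.11 to 19.8 CPM. For neuron markers the correlation was 0.44 and the sum was 1469.4 to 1802.5 CPM across the follicular and 1279.8 to 1777.0 CPM across the luteal libraries, with 8 of 12 markers averaging higher and 4 lower in luteal libraries. Among those markers SNAP25 was 85.1 to 229.2 CPM and STMN2 342.6 to 539.7 CPM, and in follicular 5, where SNAP25 was highest, STMN2 was the lowest of the follicular libraries. AVP and OXT, the vasopressin and oxytocin genes, serve as markers of magnocellular neurons. They summed to 259.3 to 2342.6 CPM across the follicular and 54.2 to 665.6 CPM across the luteal libraries, with a correlation of -0.84. Of the choroid plexus markers 6 of 6 averaged higher in luteal libraries, at 20.5 to 57.1 and 34.3 to 115.3 CPM in sum, with a correlation of -0.02. Of these, KCNJ13 stayed below 1 CPM in every library. TTR was 94.2 CPM in luteal 4 and 9.61 to 49.5 CPM in the other libraries, where follicular 3 was highest. The part of these cell types in the channel values was not tested.

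**Figure D4:**
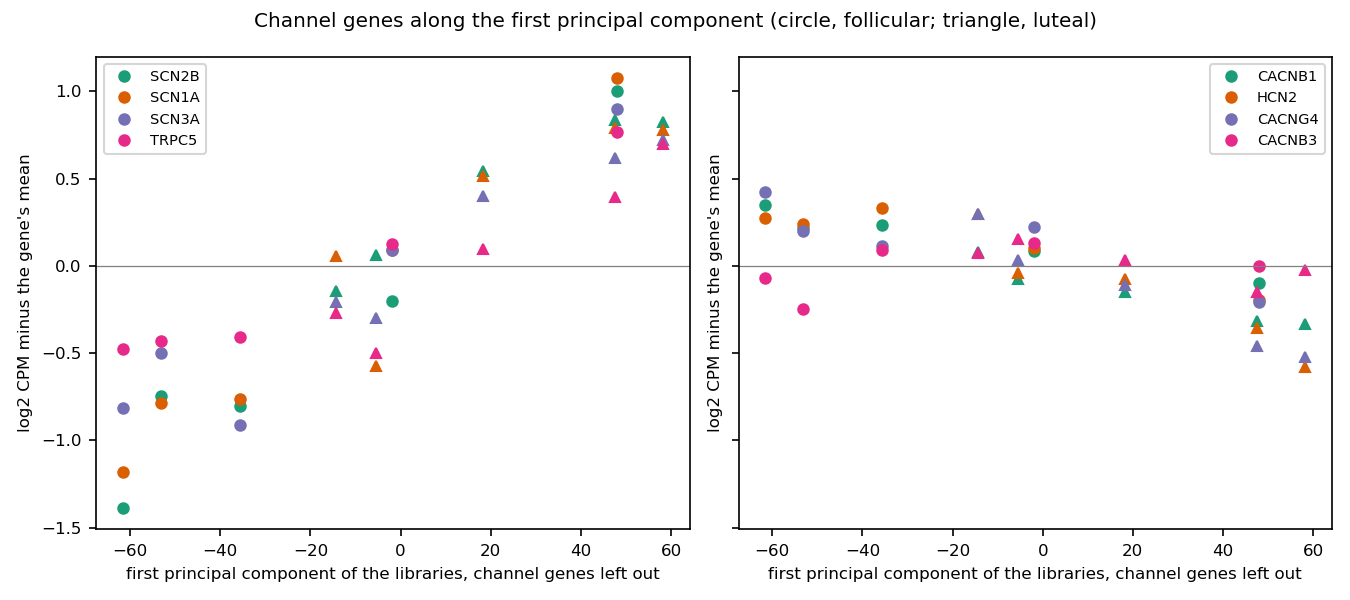
Log2 CPM of 8 channel genes minus each gene's mean (y axis) against the first principal component of the libraries computed without channel genes (x axis), with circles for follicular and triangles for luteal libraries. SCN2B, SCN1A, SCN3A and TRPC5 run upward and CACNB1, HCN2 and CACNG4 downward along it in both phases, while CACNB3 does not follow it.

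One library weighed heavily on the comparison. Without follicular 5, which lay among the luteal libraries on the component, 13 of the 46 channel genes had an unadjusted edgeR p under 0.05, or 28.3%, while the share over all genes tested was 34.2%. Of the 13, 9 were higher in luteal libraries (SCN2B, SCN9A, SCN1A, SCN3A, CACNB4, CACNB2, CACNA1B, CACNG5 and CACNA2D2) and 4 lower, among them CACNB1, HCN2 and CACNG4. None passed after adjustment. The smallest edgeR adjusted p was 0.0606, for CACNB2 (log2 fold change 0.59, SE 0.13), SCN2B (1.19, SE 0.27) and CACNA1B (0.50, SE 0.12), and CACNB1 had 0.0610 (-0.37, SE 0.11). Leaving out the library farthest from the rest of its phase lowers the spread by construction and is no separate support. Without luteal 4 the unadjusted count was 7 of 46 (15.4% of all genes), without luteal 1 it was 5 of 45 (16.9% of all genes) and without follicular 2 it was 4 of 46 (11.4% of all genes). With each of the other 6 libraries left out it was 2 or 3, or 4.35% to 6.52% of the channel genes, against 5.14% to 5.98% of all genes. Single libraries also moved the size of several changes. The log2 fold change of SCN9A ran from 0.26 without luteal 5 to 1.13 without follicular 5, and that of SCN11A from 0.39 without follicular 4 to 0.85 without follicular 2. Without follicular 4 SCN2A stood at 0.09, SCN3A at 0.22 and CACNB4 at 0.23, and without follicular 5 they stood at 0.54, 0.78 and 0.68. SCN1A was lowest without follicular 3, at 0.26. CACNA2D4 ran from 0.58 without follicular 5 to 1.12 without follicular 2. Luteal 1 and 5 moved SCN4B (-0.38 without luteal 1, -0.10 without luteal 5) and CACNG2 (-0.38 and -0.15).

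**Figure D5:**
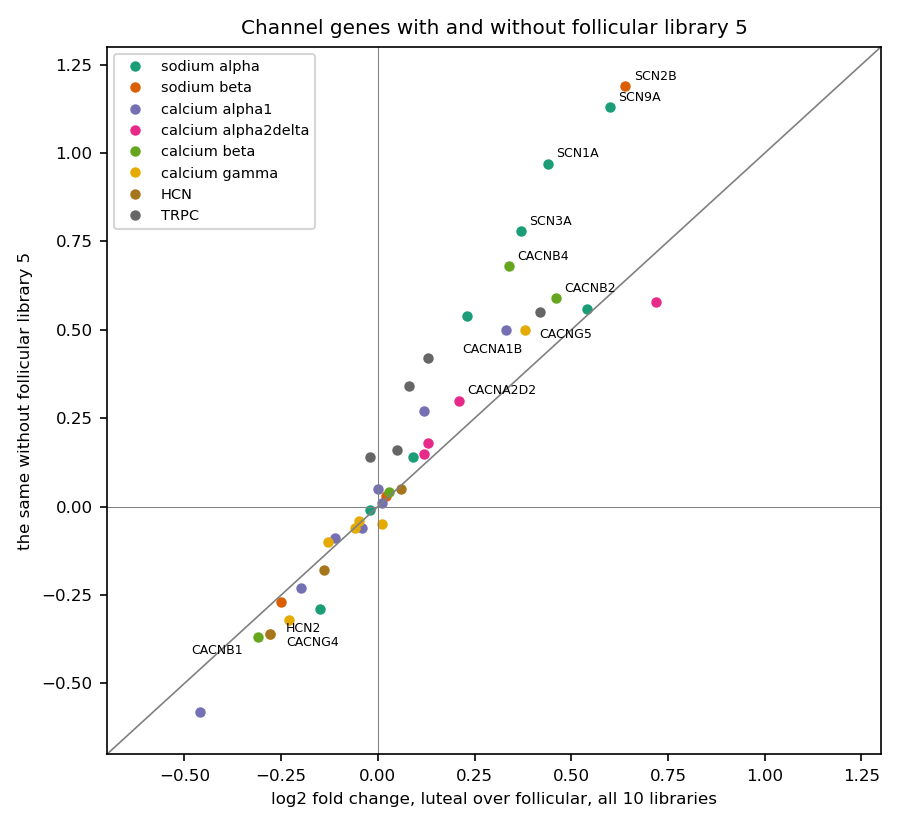
Log2 fold change of luteal over follicular with all 10 libraries (x axis) and without follicular library 5 (y axis) for 42 of the 46 tested channel genes, coloured by family, with the grey diagonal marking equal values and names given where the unadjusted edgeR p without that library was under 0.05. SCN2B moved from 0.64 to 1.19 and SCN1A from 0.44 to 0.97, while CACNB1 moved from -0.31 to -0.37.

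Without follicular 1 and 3 together, which had the fewest reads and the largest ribosomal protein share, 1 of 47 channel genes had an unadjusted p under 0.05, with an edgeR adjusted p of 0.994, against 3.23% of all genes tested. CACNB2 then had a log2 fold change of 0.31 (SE 0.17) and CACNB1 of -0.22 (SE 0.13). With the component as a covariate 5 of 46 did so, against 7.96% of all genes. Of these, 4 were lower in luteal libraries, among them TRPC5 (-0.36, SE 0.15), CACNB1 (-0.14, SE 0.06) and TRPC4 (-0.31, SE 0.14), and CACNB2 was higher (0.25, SE 0.11); none passed (edgeR adjusted p of 0.485 or more). TRPC5, whose correlation with the component was 0.91, thus turned from 0.13 to -0.36. The component itself averaged -20.9 ± 44.8 across the follicular and 20.9 ± 31.8 across the luteal libraries. The covariate thus takes up part of the phase difference, so this fit cannot fully separate phase from component.

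The proteins that anchor, gate or extend these channels were taken from a list of 74 names, of which 70 were matched and 69 tested. None passed edgeR (adjusted p from 0.426 to 0.980) and DESeq2 called 0. At an unadjusted p under 0.05 there were 10, or 14.5%, near the 11.4% of all genes tested, with 5 higher and 5 lower in luteal libraries. The 3 smallest p of the lower ones belonged to ORAI2 and ORAI3, pore subunits of store-operated calcium entry, and CABP1, a calcium sensor that binds calcium channels. ORAI2 had a follicular mean of 63.5 ± 10.1 CPM and a luteal mean of 46.8 ± 2.51 CPM (log2 fold change -0.44, SE 0.12), CABP1 43.8 ± 12.2 and 27.4 ± 3.22 CPM (-0.68, SE 0.20) and ORAI3 31.4 ± 3.77 and 25.7 ± 2.71 CPM (-0.29, SE 0.12). The 3 smallest of the higher ones belonged to the sodium-calcium exchanger SLC8A1, at 26.7 ± 6.94 and 37.1 ± 8.07 CPM (0.47, SE 0.19), the phospholipase PLCG1, at 64.9 ± 27.1 and 97.7 ± 14.2 CPM (0.59, SE 0.24), and CACHD1, an alpha2delta-like protein, at 44.4 ± 10.7 and 60.3 ± 13 CPM (0.44, SE 0.19). These genes also varied along the first principal component. The correlation was 0.94 for SLC8A1, 0.93 for PLCG1, 0.95 for CACHD1, -0.83 for ORAI2, -0.92 for CABP1 and -0.61 for ORAI3. With the component as a covariate, which takes up part of the phase difference, their log2 fold changes were 0.15, 0.24, 0.12, -0.27, -0.29 and -0.22. Without follicular 5 the unadjusted count of the whole list was 21 of 69 (34.2% of all genes). That count ranged from 2 to 21 over the 10 libraries left out in turn, while the share over all genes ranged from 5.14% to 34.2%. For NALCN, the sodium leak channel, the follicular and luteal means were 55.5 ± 7.05 and 56.1 ± 8.66 CPM (log2 fold change 0.02, SE 0.13), and for ANK3, which anchors sodium channels at the initial segment, they were 52.4 ± 8.05 and 65.4 ± 13.6 CPM (0.32, SE 0.15).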

How the data were processed

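RNA sequencing libraries of ewe mediobasal hypothalamus, 5 per phase, were analysed from 1 deposited table of raw read counts per gene, made by the authors. The tools listed are featureCounts 2.0.0, TopHat2 2.1.1 and Bowtie2 2.3.5.1, along with SAMtools 1.9, FastQC and bcl2fastq 2.20, per the submitters' processing notes. The genome build, strand setting and filters are not given in the sources used here. Groups follow the sample titles, and a p-value reflects how much mixes of different ewes vary.

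Here genes were kept by filterByExpr (minimum count 10, minimum total 15), scaled by TMM and tested for luteal over follicular with edgeR 4.0.16 (quasi-likelihood F-test, two-sided, Benjamini-Hochberg over the 18276 genes tested, threshold 0.05) in R 4.3.3; the procedure was tested on simulated counts. DESeq2 1.42.0, limma-voom (limma 3.58.1), other scalings and filters, each library left out, follicular 1 and 3 left out, a covariate for the first principal component and a replicate block were alternatives. Equal replicate numbers did not pair libraries. The channel families and the partner and marker lists were chosen with earlier results of these data known. Membership of a channel family followed the gene symbol alone. Full values are given for the 3 smallest p and the most abundant gene of each family, HCN and T-type genes, TRPC4 and TRPC5. Some channel genes enter the counts, medians and sums but are not reported here by name. Levels per length and sequences were not analysed here. The 45 pairs of libraries all differed beyond counting noise (chi-square over degrees of freedom 12.8 to 177).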

Additional observations from a re-analysis of the deposited data

Results flagged for a closer look

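Within each phase, the library farthest out was marked where its gap to the nearest other library, divided by the range of the 5, exceeded 0.71. This held for 8 of 108 groups examined, and chance gives about 1 in 20, or 5.4, for independent groups of normally distributed values. The groups here share libraries, and the family sums contain genes that were also examined singly, so 5.4 is only a rough guide. Follicular 5 accounted for 5 of the 8. It was high for SCN9A, at 2.72 CPM with the nearest follicular library at 1.23 CPM, for CACNB4, at 5.62 CPM against 2.9 CPM, and for TRPC6, at 2.88 CPM against 1.69 CPM. Its summed sodium channel alpha genes stood at 130.1 CPM against 93.8 CPM, and its summed HCN genes were low, at 87.5 CPM against 103.0 CPM. CACNG3, a TARP, was low in follicular 3, at 2.07 CPM against 3.12 CPM. HCN3 was high in one library of each phase, follicular 2 at 25.6 CPM against 20.1 CPM and luteal 4 at 23.4 CPM against 18.0 CPM.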

How the results depend on the processing

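No channel gene and no partner gene passed an adjusted p of 0.05 under any alternative run, and over all genes edgeR called 0, DESeq2 29, and edgeR with a library left out 0 to 1 (1 without luteal 4, not a channel gene). For channel genes and for partner genes the range with a library left out was 0 to 0. At an unadjusted p under 0.05 the counts were 2083 over all genes, 2 channel genes and 10 partner genes. The replicate block, for numbers that do not pair libraries (same-number correlations 0.36, 0.05, -0.33, 0.28 and 0.63), gave 0 adjusted calls and 8 channel genes at an unadjusted p under 0.05, or 17.4%, against 24.7% of all genes, and 19 of 69 partner genes. CACNB2 ranged from 0.39 to 0.59 and CACNB1 from -0.38 to -0.26 with a library left out. With limma-voom the log2 fold change took the other sign for SCN10A (0.02), SCN7A (0.02) and CACNG6 (-0.02). With the replicate block the log2 fold change took the other sign for SCN7A (0.04) and CACNG6 (-0.03). Without follicular 1 and 3 together the log2 fold change took the other sign for SCN10A (0.15), CACNA1A (-0.02), CACNA1D (-0.05), CACNA1S (0.26), CACNB3 (-0.05), CACNG6 (-0.12), TRPC1 (-0.01), TRPC5 (-0.10) and TRPC6 (-0.08). With a covariate for the first principal component the log2 fold change took the other sign for SCN1A (-0.12), SCN2A (-0.13), SCN3A (-0.15), SCN8A (-0.01), SCN9A (-0.25), SCN3B (-0.02), CACNA1D (-0.13), CACNA1G (0.10), CACNB4 (-0.05), CACNG2 (0.01), CACNG8 (0.01), TRPC1 (-0.25), TRPC5 (-0.36) and TRPC6 (-0.32). With 1 library left out in turn it did so at least once for SCN10A (-0.38 to 0.38), SCN7A (-0.14 to 0.24), SCN3B (-0.01 to 0.06), CACNA1A (-0.03 to 0.05), CACNA1G (-0.18 to 0.07), CACNB3 (-0.01 to 0.08), CACNG6 (-0.24 to 0.19), CACNG7 (-0.11 to 0.01), CACNG8 (-0.17 to 0.04), TRPC1 (-0.06 to 0.16), TRPC4 (-0.15 to 0.14), TRPC5 (-0.05 to 0.42) and TRPC6 (-0.07 to 0.34). These lists cover the genes reported by name, and the cause was not tested. Genes with few reads, such as SCN10A, SCN11A and CACNA2D4, have wide intervals, and the biological coefficient of variation of 25.1% limits all comparisons.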
